A study of Homo sapiens with 9 samples.

Results

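The mRNAs of 10 chemokine genes were followed by RNA-seq in Hep3B cells, a human hepatocellular carcinoma line, and were taken from the deposited table of read counts by exact match of the gene symbol. These were CXCL1, CXCL2, CXCL3, CXCL5, CXCL8, CXCL10, CXCL11, CXCL12, CXCL16 and CCL20, 10 of 60683 genes listed. Each of 9 cultures had been kept for 24 hours in 1 of 3 conditions with 3 biological replicates each. Cells received DMSO vehicle at 20% O2 (normoxic vehicle), DMSO vehicle at 1% O2 (hypoxic vehicle), or the HIF inhibitor 32-134D, at 5 μM, at 1% O2. Replicates were cultures of 1 cell line, so p-values measure the spread between such cultures. The compound was not given at 20% O2, so its effect apart from hypoxia could not be measured.

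Chemokines are small secreted proteins that direct the migration of leukocytes along concentration gradients through G protein–coupled receptors. The CXC chemokines CXCL1, CXCL2, CXCL3, CXCL5 and CXCL8 carry a Glu-Leu-Arg (ELR) motif before their paired cysteines. They act on CXCR2 (CXCL8 also on CXCR1), recruit neutrophils and myeloid cells, and promote angiogenesis. CXCL10 and CXCL11 lack that motif, are classical interferon-induced ligands of CXCR3, and recruit activated T cells and natural killer cells. CXCL12 (SDF-1) acts on CXCR4 and ACKR3, CXCL16 is made as a transmembrane protein whose shed form acts on CXCR6, and CCL20 acts on CCR6. Transcription of the ELR genes, CXCL10 and CCL20 in epithelial cells is classically driven by NF-κB. HIF-1 and HIF-2, the hypoxia-inducible transcription factors, bind a core of ACGTG or GCGTG.

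The stretches of promoter that hold the letters bound by NF-κB are shown first, for the 7 genes that were lower in hypoxia. RefSeq promoters on GRCh38.p14, 300 bases each around the transcription start, were found for 9 of the 10 genes and not for CXCL16. Both strands were searched for GGAATTTCC and for a longer form, GGG then any 2 bases then TTTCC, and in 4 promoters (CXCL1, CXCL2, CXCL3 and CXCL5) matches to both overlapped. At least 1 of them was present in 8 of the 9 promoters, in all but that of CXCL12, against 2.23% of all 35116 promoters of this length. The eighth, CXCL11, had too few counts to test, and its stretch is not printed. Each line runs 5′ to 3′ on the strand of the gene, from 60 bases before the match to 30 after it. Capitals mark the NF-κB letters and, in CXCL10, also the letters GAAAGTGAAA, a match on the reverse strand to the interferon-stimulated response element (TTTC, any 2 bases, TTTC), which 3.57% of all promoters hold.
CXCL1: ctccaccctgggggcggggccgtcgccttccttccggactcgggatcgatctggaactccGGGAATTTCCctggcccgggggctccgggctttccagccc
CXCL2: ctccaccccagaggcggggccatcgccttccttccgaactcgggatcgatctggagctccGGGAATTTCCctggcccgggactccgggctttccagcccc
CXCL3: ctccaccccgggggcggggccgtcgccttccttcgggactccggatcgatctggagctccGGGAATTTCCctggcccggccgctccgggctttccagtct
CXCL5: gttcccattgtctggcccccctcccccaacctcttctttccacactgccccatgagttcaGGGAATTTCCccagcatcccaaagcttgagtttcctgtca
CXCL8: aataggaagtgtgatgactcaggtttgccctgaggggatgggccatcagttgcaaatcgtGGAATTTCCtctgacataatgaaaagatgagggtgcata
CXCL10: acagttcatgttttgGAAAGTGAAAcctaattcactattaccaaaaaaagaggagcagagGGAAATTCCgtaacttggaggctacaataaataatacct
CCL20: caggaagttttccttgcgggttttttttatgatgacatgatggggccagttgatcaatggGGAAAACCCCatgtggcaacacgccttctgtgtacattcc

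These stretches lie at chr4:73869254-73869353 (+ strand) for CXCL1, chr4:74099234-74099333 (−) for CXCL2, chr4:74038729-74038828 (−) for CXCL3 and chr4:73998729-73998828 (−) for CXCL5. Those of CXCL8, CXCL10 and CCL20 lie at chr4:73740418-73740516 (+), chr4:76023635-76023733 (−) and chr2:227813703-227813802 (+). The match began 79, 78 and 79 bases before the start of CXCL1, CXCL2 and CXCL3, and the capital letters were identical in these genes and in CXCL5. It began 91 bases before the start of both CXCL5 and CXCL8, 79 before that of CCL20 and 176 before that of CXCL10. The HIF core ACGTG was found in the CXCL10 promoter, as in 21.4% of all promoters, and GCGTG in those of CXCL5 and CCL20, as in 36.5%. A match describes the letters in the window and is not a measurement of binding. Most of these genes are ones classically driven by NF-κB, and CXCL1, CXCL2 and CXCL3 are close relatives. The share of their promoters with a match is therefore a description. Its relation to the changes below was not tested.

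Total counts ran from 6013980 in replicate 2 of normoxic vehicle to 40549699 in replicate 1 of hypoxic vehicle. Hepatocyte genes (ALB, AFP, APOA1, APOB, TTR and SERPINA1) were well counted, together at 10800 to 17500 CPM (counts scaled to library size and by TMM, as in all values below) in each library. Of these 6, APOB and AFP were lower in hypoxia (log2 fold changes -3.47 and -0.69). With 32-134D, APOB was higher (3.12) and TTR lower (-0.92). The AFP and TTR calls were lost in 3 and 8 of 17 other settings. The leukocyte gene PTPRC had 7 counts over the 9 libraries and the endothelial genes VWF and KDR had 0. Of tested markers of other cell types, 2 of 3 leukocyte, 3 of 4 fibroblast and 1 of 1 endothelial genes were lower in hypoxia. With 32-134D, 2, 4 and 1 of these tested markers were higher. Over all tested genes, 20.3% were lower in hypoxia, and 16.2% were higher and 13.7% lower with 32-134D. The leukocyte gene CSF1R was instead lower with 32-134D (log2 fold change -0.70), a call lost in 7 of 16 other settings. The fibroblast gene LUM was not called in hypoxia (0.61). The 6 leukocyte genes summed to 27.8 to 34.3 CPM in normoxic vehicle, 9.89 to 12.3 in hypoxic vehicle and 14.8 to 23.9 with 32-134D, most of it LYZ. The 5 fibroblast genes summed to 36.1 to 39.7, 17.1 to 18.5 and 35.5 to 43.4 CPM, and the 4 endothelial genes to at most 1.28 CPM in any library. Their part in the results below was not tested, and in bulk RNA fewer cells of a type and less RNA per cell cannot be told apart. Replicate 3 of 32-134D stood apart from replicates 1 and 2. Its counts differed from theirs by a chi-square of 36.4 and 32.5 per degree of freedom, against 2.0 between replicates 1 and 2 and 1.62 to 12 between replicates of the vehicle groups. The results that rest on it are given with and without it.

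Hypoxia lowered the 5 ELR chemokine genes, CXCL10 and CCL20, and raised CXCL16. Of the 9 chemokine genes with enough counts to test, 7 were thus lower in hypoxic than in normoxic vehicle (CXCL1, CXCL2, CXCL3, CXCL5, CXCL8, CXCL10 and CCL20), 1 was higher, and CXCL12 did not pass. The decreases ran from 2.40-fold for CXCL8 to 50.2-fold for CXCL1 among the genes other than CXCL10, whose ratio rests on 4 counts in hypoxic vehicle and is given below with its interval. Calls required a fold change above 1.5 and an FDR (Benjamini-Hochberg) under 0.05 from the quasi-likelihood test of edgeR, adjusted over the 22672 genes whose counts summed to at least 10. By that rule 20.3% of all tested genes were called lower in hypoxia and 19.5% higher. The median log2 fold change was -2.58 over the 9 chemokine genes and 0.000997 over all genes tested. The 10 genes were chosen with earlier results of these data known. Their counts and medians beside those of all genes, here and below, are therefore a description.

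With 32-134D in hypoxia, 8 of the 9 were higher than in hypoxic vehicle, against 16.2% of all tested genes, and none was called lower, against 13.7%. The 8 were the 7 genes named above and CXCL12, whose call rested on replicate 3. Without that replicate the count was 7 higher and 1 lower, since CXCL12 was lost and CXCL16 was gained as a decrease. The median log2 fold change over the 9 was 2.05, against -0.0116 over all genes. Both comparisons use the same hypoxic vehicle libraries, so the values of each are given side by side below. A gene low in those libraries appears lower in hypoxia and higher with 32-134D, so the counts are not independent. The 16.2% is over all tested genes, and the share among genes lower in hypoxia is not given here. The plot of levels in each library shows the values behind these counts.

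**Figure D1:**
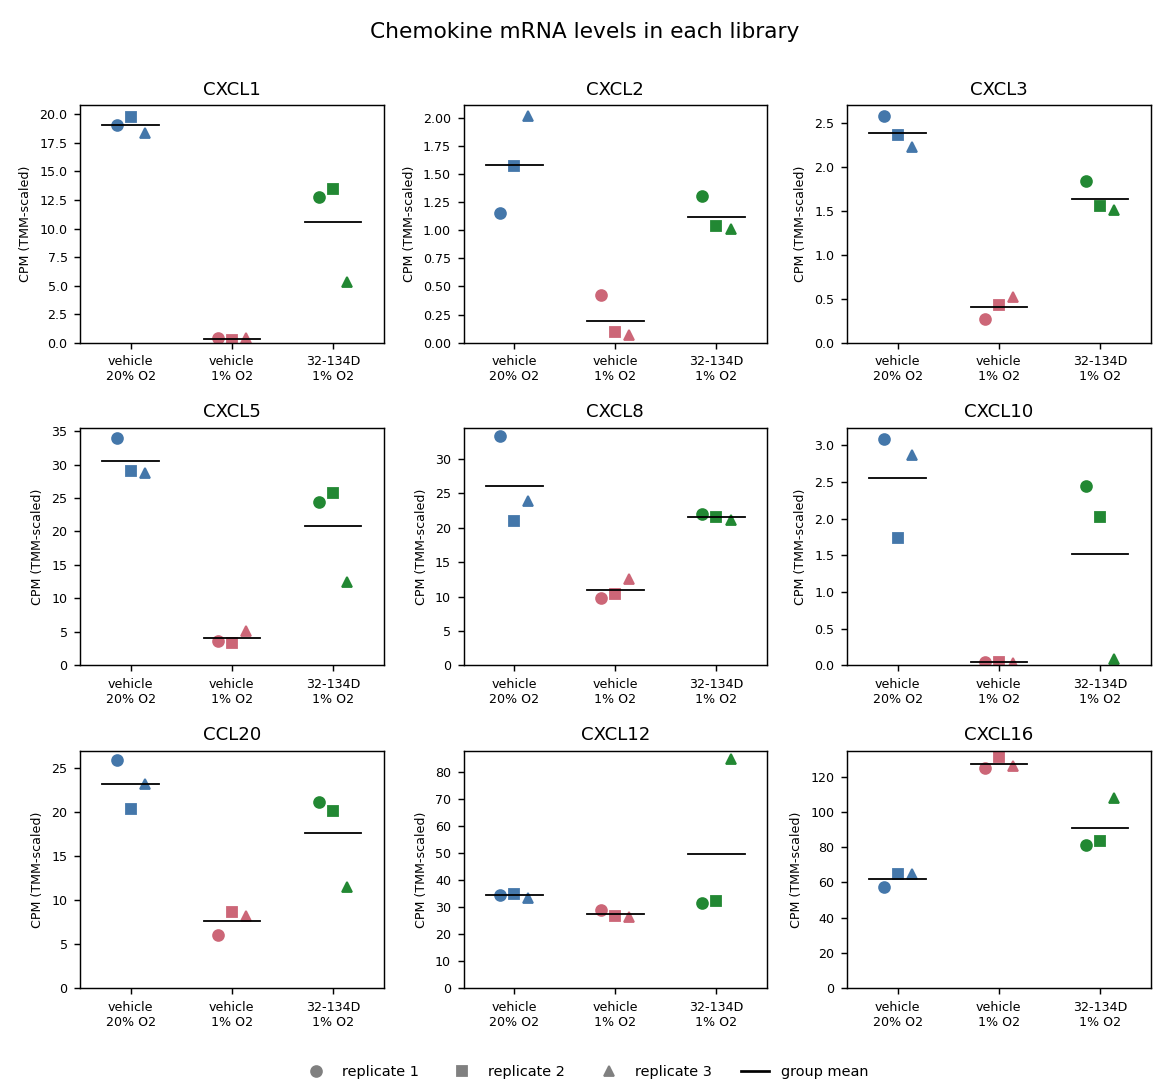
Level of each chemokine mRNA in CPM (TMM-scaled, linear axis from 0, a separate scale in each panel) in the 9 libraries. Symbols mark the replicate and bars the group mean (n = 3). The hypoxic vehicle libraries lie lowest for CXCL1, CXCL2, CXCL3, CXCL5, CXCL8 and CCL20 and highest for CXCL16, and replicate 3 of 32-134D stands apart for CXCL1, CXCL5, CXCL10, CCL20 and CXCL12, with 85.1 CPM of CXCL12 against 31.6 and 32.3.

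Among the ELR chemokines, CXCL1 (ENSG00000163739, chromosome 4, 73869393 to 73871242 in GRCh38) changed most. Its level was 19.1, 19.8 and 18.4 CPM in replicates 1, 2 and 3 of normoxic vehicle, 0.398, 0.283 and 0.415 CPM in hypoxic vehicle, and 12.8, 13.5 and 5.30 CPM with 32-134D. The 3 groups did not overlap. Hypoxic vehicle held 33 CXCL1 counts in all, against 998 in normoxic vehicle, although it was the more deeply sequenced group. The log2 fold change was -5.65 in hypoxia (95% interval -6.40 to -4.90, FDR 5.01e-09 from edgeR) and 4.81 with 32-134D (4.06 to 5.56, FDR 7.13e-08 from edgeR), a 28.1-fold increase. Replicate 3 of 32-134D had 0.404 times the mean of replicates 1 and 2, and without it the increase was 34.6-fold.

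CXCL5 (ENSG00000163735, chromosome 4, 73995642 to 73998779), made mainly by epithelial cells, had 33.9, 29 and 28.8 CPM in normoxic vehicle, 3.63, 3.30 and 5.15 CPM in hypoxic vehicle, and 24.4, 25.7 and 12.4 CPM with 32-134D. Every normoxic library was above every other library, and every hypoxic vehicle library was below. The decrease in hypoxia was 7.56-fold (log2 fold change -2.92, SE 0.24, FDR 9.86e-08 from edgeR) and the increase with 32-134D 5.17-fold (log2 fold change 2.37, SE 0.24, FDR 1.28e-06 from edgeR). Without replicate 3 the increase was 6.17-fold.

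CXCL2 (ENSG00000081041, chromosome 4, 74097035 to 74099293) and CXCL3 (ENSG00000163734, chromosome 4, 74036589 to 74038807), close relatives of CXCL1, were counted far less. The CXCL3 counts were 36, 15 and 73 in normoxic vehicle, 10, 9 and 15 in hypoxic vehicle, and 65, 46 and 33 with 32-134D. In CPM the 3 groups of CXCL3 were apart, at 2.22 to 2.58, 0.265 to 0.519 and 1.51 to 1.84. Its log2 fold change was -2.58 in hypoxia (SE 0.28, FDR 1.99e-06 from edgeR) and 2.05 with 32-134D (SE 0.28, FDR 2.4e-05 from edgeR).

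The CXCL2 counts were 16, 10 and 66 in normoxic vehicle, 16, 2 and 2 in hypoxic vehicle, and 46, 31 and 22 with 32-134D. Replicate 1 of hypoxic vehicle therefore held 16 of the 20 counts of its group, at 0.424 CPM against 0.0943 and 0.0691. It still lay below the lowest library of the other groups, at 1.01 CPM. The log2 fold change was -2.86 in hypoxia (SE 0.47, FDR 9.39e-05 from edgeR) and 2.33 with 32-134D (SE 0.46, FDR 0.000662 from edgeR). Without that replicate the values were -4.27 and 3.73, so its size, though not its direction or call, rests on 1 library. Stretches of 50 bases shared with another gene's transcript made up 9.24% of the CXCL2 transcript, 5.73% of CXCL1 and 3.02% of CXCL3, and no stretch of 100 bases was shared. Short reads from those parts could not be assigned to 1 of the 3 genes.

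CXCL8 (interleukin-8, ENSG00000169429, chromosome 4, 73740506 to 73743716), the main human neutrophil attractant, changed least among the ELR genes. It had 33.3, 21.0 and 23.9 CPM in normoxic vehicle, 9.83, 10.4 and 12.6 CPM in hypoxic vehicle, and 22, 21.5 and 21.2 CPM with 32-134D. The hypoxic vehicle libraries lay below all others, and the 32-134D libraries fell within the normoxic range, replicate 3 included. The decrease in hypoxia was 2.40-fold (log2 fold change -1.26, SE 0.15, FDR 3.93e-06 from edgeR) and the increase with 32-134D 1.97-fold (log2 fold change 0.98, SE 0.14, FDR 5.56e-05 from edgeR).

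Of the CXCR3 ligands, CXCL10 (ENSG00000169245, chromosome 4, 76021117 to 76023497) was nearly lost in hypoxia. Its counts were 43, 11 and 94 in normoxic vehicle and 2, 1 and 1 in hypoxic vehicle. With 32-134D they were 86, 60 and 2. In CPM this was 3.08, 1.73 and 2.86, then 0.0530, 0.0471 and 0.0346, then 2.44, 2.02 and 0.0915. Replicates 1 and 2 of 32-134D were thus at the normoxic level, and replicate 3 was near the hypoxic vehicle level, 0.041 times the mean of the other two.

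The ratio of CXCL10 in normoxic to hypoxic vehicle was 61.1 on 148 and 4 counts (95% interval 23.4 to 227, exact, counting error only). In the fit, the log2 fold change was -5.74 in hypoxia (SE 0.88, FDR 5.44e-05 from edgeR) and 4.99 with 32-134D (SE 0.90, FDR 0.000324 from edgeR). The increase with 32-134D was called both with replicate 3 and, at 5.48, without it, but its mean of 1.52 ± 1.25 CPM (SD, n = 3) describes no single library. CXCL11 (ENSG00000169248, chromosome 4, 76033682 to 76041415) had 2 counts, both in replicate 2 of 32-134D, and 0 in the other 8 libraries, which allows up to 0.0795 to 0.471 CPM per library at a floor of 3 counts. It was not tested.

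CCL20 (ENSG00000115009, chromosome 2, 227805739 to 227817564), which attracts CCR6-bearing dendritic cells and T helper 17 cells, had 26, 20.4 and 23.2 CPM in normoxic vehicle, 6.02, 8.63 and 8.23 CPM in hypoxic vehicle, and 21.2, 20.1 and 11.5 CPM with 32-134D. Again the hypoxic vehicle libraries were the lowest, and replicate 3 of 32-134D lay between them and the others. The decrease in hypoxia was 3.10-fold (log2 fold change -1.63, SE 0.20, FDR 7.34e-06 from edgeR). The increase with 32-134D was 2.34-fold (log2 fold change 1.23, SE 0.20, FDR 0.000126 from edgeR), and 2.75-fold without replicate 3.

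CXCL12 (ENSG00000107562, chromosome 10, 44370165 to 44386493), the constitutive chemokine that retains hematopoietic cells in the marrow, moved little with oxygen. It had 34.7, 35.0 and 33.6 CPM in normoxic vehicle and 28.9, 26.8 and 26.4 CPM in hypoxic vehicle, which do not overlap. The log2 fold change of -0.33 did not pass (95% interval -0.93 to 0.28, FDR 0.353 from edgeR). The spread in that fit is shared with the 32-134D libraries, and without replicate 3 of 32-134D the value for CXCL12 in hypoxia was again -0.33 with an FDR of 0.000715 from edgeR, still under the fold threshold. With 32-134D it had 31.6, 32.3 and 85.1 CPM. The fit across all libraries gave an increase of 1.80-fold over hypoxic vehicle (FDR 0.0193 from edgeR), and without replicate 3 the log2 fold change was 0.22 (FDR 0.0266), a 1.17-fold difference under the fold threshold. The call was also lost without replicate 1 or 2 of hypoxic vehicle.

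CXCL16 (ENSG00000161921, chromosome 17, 4733526 to 4739922), which also serves as a scavenger receptor in its membrane form, was the 1 gene of the 9 raised by hypoxia. It had 57.4, 64.5 and 64.7 CPM in normoxic vehicle, 125, 131 and 126 CPM in hypoxic vehicle, and 81.1, 83.5 and 108 CPM with 32-134D. The 3 groups were separate, with 32-134D between the vehicles. The increase in hypoxia was 2.05-fold (log2 fold change 1.03, SE 0.10, FDR 6.1e-07 from edgeR). With 32-134D it was 1.40-fold lower (log2 fold change -0.49, SE 0.10, FDR 0.000782 from edgeR), under the fold threshold, and 1.55-fold lower without replicate 3, which passed. Its exons share 85 bases with those of MED11 on the opposite strand, and the strand setting of the counting is not given in the sources used here, so reads from that overlap could not be told apart.

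Against normoxic vehicle, 1 of the 9 genes was called with 32-134D, CXCL1, at 1.79-fold lower (log2 fold change -0.84, 95% interval -1.35 to -0.33, FDR 0.0384 from edgeR). Over all tested genes, 3% were called higher and 0.516% lower in this comparison. The CXCL1 call was lost in 7 of the 9 fits that left out 1 library, and without replicate 3 of 32-134D its log2 fold change was -0.53. For CXCL2, CXCL3, CXCL5, CXCL8, CXCL10 and CCL20 the log2 fold changes were between -0.75 and -0.28 and did not pass, with FDR from 0.124 to 0.424 from edgeR. Their 95% intervals lay within -1.86 to 0.36, so a return to the normoxic level was not shown. CXCL16 stayed 1.46-fold above normoxic vehicle (FDR 0.00317 from edgeR), just under the fold threshold, and its libraries did not overlap with those of normoxic vehicle. For CXCL12 the log2 fold change was 0.52 with all libraries and -0.11 without replicate 3.

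**Figure D2:**
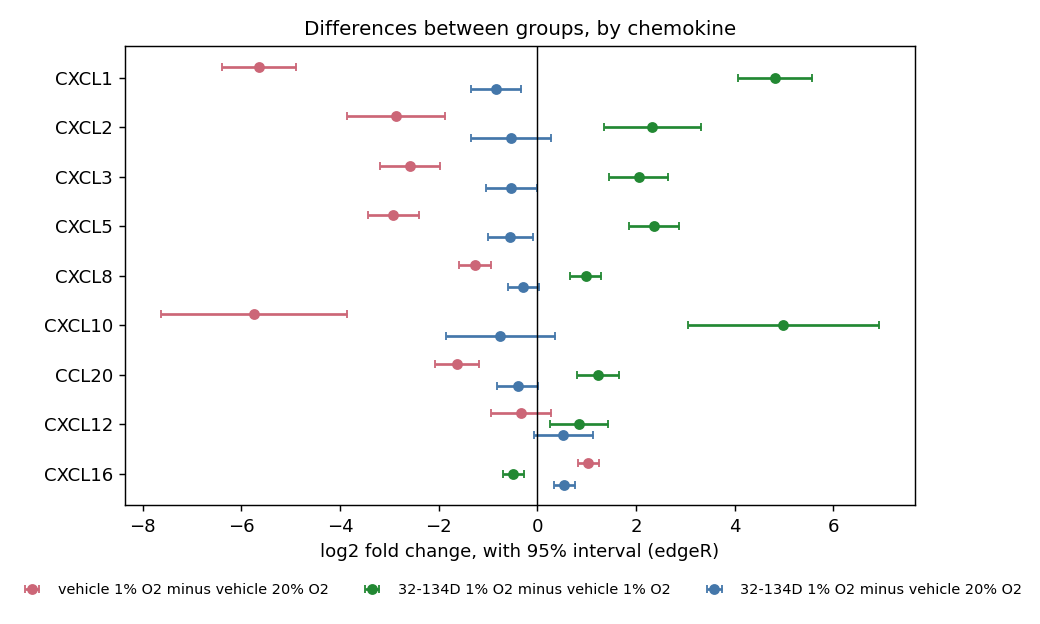
Log2 fold change of the 9 tested chemokine genes (points) with the 95% interval from edgeR (bars) in the 3 comparisons, on a linear axis of log2 units. The hypoxia values lie below 0 for 8 genes, from -0.33 for CXCL12 to -5.74 for CXCL10, and above 0 for CXCL16, and the values of 32-134D against normoxic vehicle lie between -0.84 and 0.55.

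To set levels of different genes side by side, CPM were divided by the kilobases of exon annotated over all transcripts of a gene. For CCL20 this length was 1594 bases, against 839 in its longest transcript, so the order of genes can depend on it. In CPM per kilobase of exon, CXCL16 ranked first in every group. It had 22.3 ± 1.50, 45.6 ± 1.20 and 32.5 ± 5.33 (SD, n = 3) in normoxic vehicle, hypoxic vehicle and 32-134D. In normoxic vehicle it was followed by CXCL1, CCL20, CXCL5 and CXCL8 at 14.7, 14.6, 12.1 and 11.5, and neighbors in this order overlapped. CXCL12 (5.67) and CXCL10 (2.17) came next, each apart from its neighbors, then CXCL3 (1.08) and CXCL2 (1.05), which overlapped. In hypoxic vehicle, CXCL1 moved from rank 2 to rank 6 at 0.282, below CXCL8, CCL20, CXCL12 and CXCL5 at 4.82, 4.78, 4.50 and 1.59. There CXCL8, CCL20 and CXCL12 overlapped with their neighbors in the order, and CXCL10 was the lowest of the tested genes at 0.0382. With 32-134D, CCL20, CXCL8, CXCL5, CXCL12 and CXCL1 ranked 2 to 6 at 8.12 to 11 and overlapped with their neighbors. The place of CXCL12 above CXCL1 rested on replicate 3. CXCL12 had 5.20, 5.31 and 14 CPM per kilobase in replicates 1, 2 and 3, and CXCL1 had 9.87, 10.4 and 4.09.

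Of the 9 tested chemokine genes, 6 lie on chromosome 4 between CXCL8 and CXCL10, in the interval that holds both CXC gene groups. Of the 17 other tested genes there, 4 were lower in hypoxia, 6 were higher and 7 were not called. The 4 were CXCL6 (log2 fold change -1.61), MTHFD2L (-0.62), LINC02562 (-1.36) and SDAD1 (-0.95). Over all tested genes, 20.3% were lower in hypoxia and 19.5% higher. Nearest to CXCL2, MTHFD2L was the last gene of the run of lower genes that started at CXCL8. The epidermal growth factor family genes EREG and AREG, beyond it, were higher in hypoxia with log2 fold changes of 1.04 and 1.42. With 32-134D, 4 of the 17 were higher and 1 was lower, against 16.2% and 13.7% of all tested genes. SDAD1, the tested neighbor of CXCL10, was among the higher at 0.95 (FDR 2.66e-06 from edgeR). The genes named here other than CXCL6 were chosen after their values were seen.

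**Figure D3:**
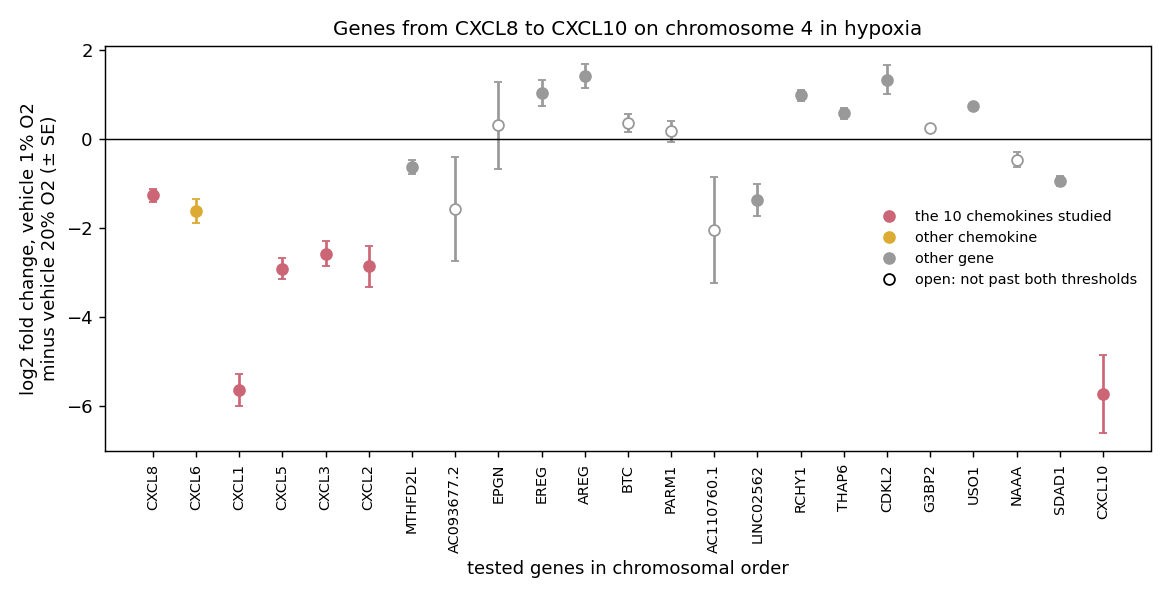
Log2 fold change in hypoxia (vehicle at 1% O2 minus vehicle at 20% O2, ± SE from edgeR, linear axis of log2 units) for the 23 tested genes from CXCL8 to CXCL10 on chromosome 4, in chromosomal order and not to distance. The first 7 genes, from CXCL8 to MTHFD2L, all lie below 0, and the genes that follow lie on both sides of 0 until CXCL10 at -5.74.

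The other chemokines were mostly silent in these cells. Of 34 listed, 25 had no library above 3 counts and 8 were tested. In hypoxia, 3 of the 8 were lower and 1 higher, against 20.3% and 19.5% of all tested genes. With 32-134D, 2 were higher and 0 lower, against 16.2% and 13.7%. CXCL6, the ELR relative of CXCL5, had 8.67 ± 1.08, 2.87 ± 0.381 and 6.26 ± 2.71 CPM in normoxic vehicle, hypoxic vehicle and 32-134D (SD, n = 3 in each group). CXCL6 fell in hypoxia (FDR 0.000144 from edgeR) and rose with 32-134D, where the log2 value was 1.16 (FDR 0.00223). Its 32-134D libraries, from 3.16 to 8.15 CPM, overlapped with those of hypoxic vehicle, from 2.49 to 3.25. The call was lost in 0 of 17 other settings. CX3CL1 (fractalkine), a membrane-anchored chemokine for monocytes and natural killer cells, was the most abundant of them at 81.2 ± 8.25, 31.0 ± 4.51 and 54.9 ± 14.2 CPM, with log2 fold changes of -1.39 in hypoxia (FDR 4.13e-06 from edgeR) and 0.83 with 32-134D (FDR 0.00057). CCL14, with 71 counts in all, was also lower in hypoxia at -1.50, a call lost in 6 of 16 other settings. The 1 gene called higher, CCL26, had 13 counts in all and 0 in every normoxic library, and its call was lost in 4 of the 14 other settings in which it was tested.

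Of 23 chemokine receptors, 15 had no library above 3 counts and 8 were tested. Among the tested receptors, 1 was higher in hypoxia and 3 were lower, against 19.5% and 20.3% of all tested genes. The one raised was CXCR4, the receptor for CXCL12 and a known HIF target, at 2.29 ± 0.838, 36.8 ± 3.29 and 6.33 ± 0.492 CPM (SD, n = 3) in normoxic vehicle, hypoxic vehicle and 32-134D. In hypoxia CXCR4 had a log2 value of 3.92 relative to normoxic vehicle (FDR 1.36e-10 from edgeR) and -2.53 with 32-134D (FDR 4.62e-09), and it stayed 1.38 above normoxic vehicle (FDR 0.000142). CCR1 was lower in hypoxia and higher with 32-134D on 83 counts in all, with log2 fold changes of -2.31 and 2.33. Both calls were lost after thinning to the smallest library. The other receptors that fell, CCR4 and CCR6, had 24 and 29 counts in all and are named because they are so few. ACKR3 did not pass, at 1.32 on the log2 scale in hypoxia (FDR 0.165, edgeR).

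Genes that act upstream of chemokine transcription moved in both directions. In the list of 15 NF-κB pathway genes, 6 were higher in hypoxia, 3 were lower and 6 were not called, with a median log2 fold change of 0.36. Over all tested genes, 19.5% were higher and 20.3% lower in hypoxia, and 16.2% and 13.7% with 32-134D. NFKBIZ, a nuclear IκB protein that serves as a coactivator at a subset of NF-κB target genes, had 93.4 ± 5.03, 22.4 ± 0.736 and 71.5 ± 8.94 CPM in normoxic vehicle, hypoxic vehicle and 32-134D (SD, n = 3). Its log2 fold change was -2.06 in hypoxia (FDR 3.24e-10 from edgeR) and 1.68 with 32-134D (FDR 6.29e-09). BIRC3, an NF-κB target that restrains apoptosis, moved the same way at -0.94 and 0.83. IKBKG and NFKBIB, a subunit of the IκB kinase and an inhibitor that holds NF-κB in the cytoplasm, were higher in hypoxia at 1.20 and 1.14. With 32-134D, 2 of the 15 were higher and 4 lower, among them NFKBIB (-0.80) and NFKBIE (-0.78). The other lower calls were less stable, since that of IKBKG (-0.66) was lost in 5 of 17 other settings and that of RELA (-0.59), named after its values were seen, in 14 of 17.

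Among 15 interferon response genes, 3 were higher in hypoxia, 4 were lower and 8 were not called. The shares over all tested genes were 19.5% higher and 20.3% lower. IRF1 and IRF7, transcription factors of that response, were higher in hypoxia at log2 fold changes of 1.82 and 1.72, and IRF7 was at -1.36 with 32-134D. GBP1, an interferon-induced GTPase, was lower in hypoxia at -2.39 on 119 counts in all, with libraries that overlapped. With 32-134D, 3 of the 15 were higher and 4 lower, against 16.2% and 13.7% of all tested genes. STAT2 was among the higher at 1.28 and IFIT2 among the lower at -1.27. In hypoxia, STAT2 was lower at -1.61 and IFIT2 higher at 1.63 (FDR 1.6e-08 and 0.000349 from edgeR).

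The cytokines that induce chemokines were mostly not counted, with no library above 3 counts for 10 of 15, and 6 were tested. IL11 and IL18 were higher in hypoxia, at log2 fold changes of 1.53 and 0.98, and CSF1 and LIF were lower at -1.10 and -0.90. Over all tested genes, 19.5% were higher and 20.3% lower in hypoxia, and 16.2% and 13.7% with 32-134D. With 32-134D, IL18 was at -1.18, CSF1 at 1.15 and LIF at 0.79, and the LIF value was 0.36 and not called without replicate 3. In the list of 7 regulators of AU-rich mRNA decay, which shortens the life of many chemokine mRNAs, 2 were higher in hypoxia and 2 lower. Over all tested genes these shares were 19.5% and 20.3%. ZFP36 (tristetraprolin), which binds AU-rich elements and promotes decay, had 20.1 ± 1.94, 87.9 ± 1.31 and 38.8 ± 8.84 CPM (SD, n = 3), with log2 fold changes of 2.14 in hypoxia (FDR 5.69e-09 from edgeR) and -1.18 with 32-134D (FDR 2.01e-06). ELAVL1 was higher at 0.67, and ZFP36L2 and ZC3H12A were lower at -0.77 and -0.68. ZC3H12A rose with 32-134D at 0.66.

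Of 7 proteases that process chemokines, 3 were tested. In hypoxia 2 of the 3 were lower and 0 higher, against 20.3% and 19.5% of all tested genes. With 32-134D, 1 was higher and 0 lower, against 16.2% and 13.7%. DPP4, which inactivates CXCL10 and CXCL12 by trimming their amino end, was lower in hypoxia at -1.28 on the log2 scale (FDR 0.00163, edgeR). With 32-134D its value of 0.65 did not pass (FDR 0.0784 from edgeR). The 32-134D libraries ran from 21.4 to 71.3 CPM of DPP4, and those of hypoxic vehicle from 32 to 37. That spread was wide, so the missed call does not show that DPP4 was unchanged. ADAM10, a sheddase of CXCL16 and CX3CL1, was lower in hypoxia at -0.61 and higher with 32-134D at 0.67 (FDR 1.16e-06 from edgeR). The bars of genes past both thresholds show these lists beside the chemokines.

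**Figure D4:**
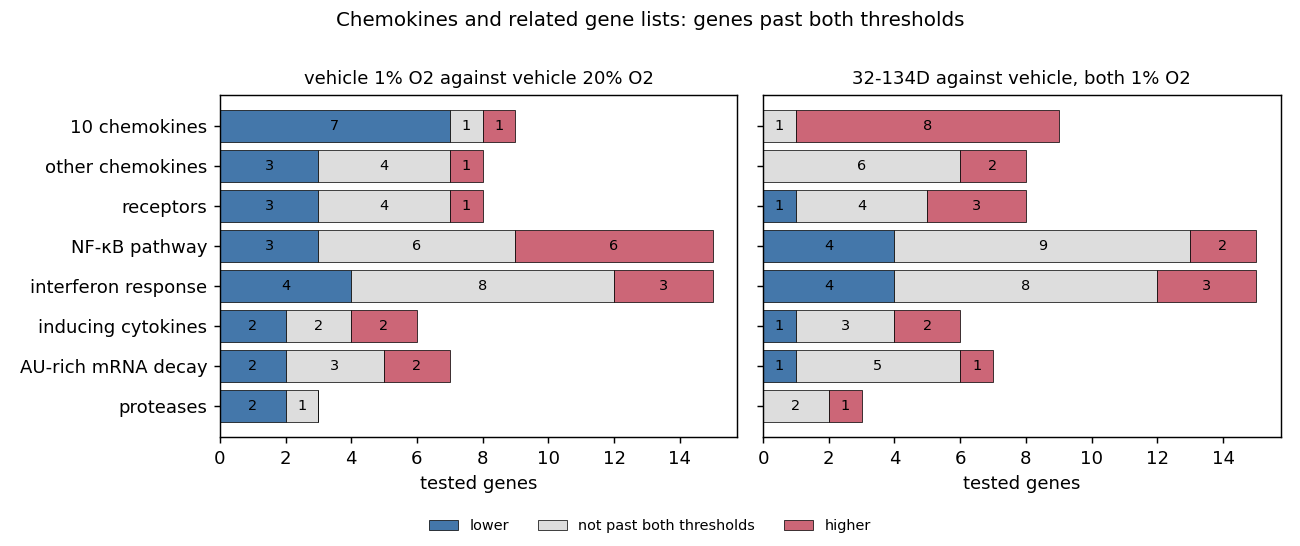
Number of tested genes lower (blue), higher (red) or not past both thresholds (grey) in each list, for vehicle at 1% O2 against vehicle at 20% O2 (left) and for 32-134D against vehicle at 1% O2 (right). Of the 9 chemokine genes tested, 7 were lower on the left and 8 higher on the right, against 20.3% and 16.2% of all tested genes. The 8 include CXCL12, which was not called without replicate 3 of 32-134D. The NF-κB pathway list had 6 higher and 3 lower on the left, against 19.5% and 20.3% of all tested genes.

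The genes whose log2 CPM followed that of CXCL16 most closely over the 9 libraries, among 18985 genes with at least 30 counts, were TRIM8, EIF4B and TBX3, with Pearson's r of 0.9968, 0.9952 and 0.9951. For CXCL12 they were ITGA2, SERPINE2 and PRKAA2 at 0.9909, 0.9777 and 0.9769, in libraries that include the 85.1 CPM of replicate 3 of 32-134D. The 9 libraries fall into 3 groups that these genes share, so these values are a description.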

How the data were processed

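RNA was sequenced from 9 Hep3B cultures. The table was deposited by the authors, and it holds unnormalized counts for each Ensembl gene. Reads had been checked with FastQC, trimmed with Bbduk, aligned with STAR to GRCh38 (Ensembl 100) and counted with featureCounts. Tool versions, read length and the strand setting are not given in the sources used here. The 9 columns matched the sample titles, and 0 were unmapped. Counts were scaled by TMM and compared in 1 quasi-likelihood fit of the 9 libraries (edgeR 4.0.16, R 4.3.3), with DESeq2 1.42.0 as an alternative. A sum of 10 counts over the libraries was the minimum for testing, and the procedure was tested on simulated data. A library with at most 3 counts was treated as at the floor. Log2 CPM used a prior count of 2. Positions and exon lengths came from GENCODE version 29, and promoters from RefSeq. The 10 genes and the gene lists were chosen with earlier results of these data known. Listed genes were named when called and holding at least 30 counts, up to 4 per list by size. A gene that this rule names is not reported here. Alternatives covered the test, scaling, filter, thresholds, groups fitted, replicate block, thinning and each library left out.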

Additional observations from a re-analysis of the deposited data

How the results depend on the processing

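The counts of 7 lower and 1 higher in hypoxia were the same with DESeq2, other scalings, no filter, both other fold thresholds, 2-group fits, thinning and each library left out. A minimum of 10 counts in every library left 5 of the 9 genes to test, of which 3 were lower in hypoxia and 4 higher with 32-134D. The count higher with 32-134D was 7 to 8 with each library left out, 6 with a fold change above 2, and 7 with only the groups compared (CXCL12 with 32-134D lost, FDR 0.0512 from edgeR) and after thinning (CXCL2 lost, at 0.96). The count lower with 32-134D was 0, and 1 (CXCL16) with no fold change threshold, and 0 to 1 with each library left out. Against normoxic vehicle, 0 were higher and 1 lower. The higher count was 1 (CXCL16) with no fold change threshold and 0 to 1 with each library left out, and the lower count was 0 under that count minimum, with a fold change above 2 and with only the groups compared, 2 after thinning and 0 to 1 with each library left out. CXCL12 with 32-134D against normoxia, at 0.52, ranged from -0.11 to 0.77 with each library left out and reversed to -0.11 without replicate 3 of 32-134D. The cause was not tested. With total library size the median over all genes moved to -0.21 in hypoxia and 0.17 with 32-134D, with 34.5% and 72% of the calls higher against 49% and 54.2%, and no chemokine gene changed its call or direction. Replicate numbers did not pair the samples, since same-numbered libraries correlated at -0.0322 to 0.00525 in their deviations. With the replicate block the chemokine counts stayed at 7 and 1, 8 and 0, and 0 and 1, and calls over all genes went from 9007 to 8671, 6775 to 6486 and 798 to 785. Depth limits CXCL2, CXCL3, CXCL10 and CXCL11 most, each with at most 302 counts over the 9 libraries.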
